A study of Drosophila melanogaster with 24 samples.

Results

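Gene expression was compared between late larvae and white prepupae of Oregon-R, a wild-type laboratory strain of Drosophila melanogaster. The comparison rests on all 6 Oregon-R arrays of a series of 24, chosen by their strain and stage labels, with 3 biological replicates at each stage. The late larvae were animals of the last larval instar, whose stage label carries the number 18 without a unit, and the white prepupae had just formed the puparium. The other 18 arrays came from the wild-type strains Canton-S, Samarkand and Zimbabwe-109 at the same stages, with 3 replicates per strain and stage. No transgene, mutation or drug was named for any group. All animals were raised uncrowded at 25 °C, per the labels' protocols, and their food contained 0.05% bromophenol blue, which colours the gut contents. Each replicate was a pool of about 120 mg of whole animals (60 to 80 of them), so that every value is an average over a pool and over all tissues. In such bulk samples fewer cells of a type and less RNA per cell cannot be told apart. The sex of the animals and their age in hours were not given in the sources used here.

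Puparium formation is set off by a pulse of the steroid hormone ecdysone, which acts through a nuclear receptor and a cascade of early and late genes. Around this time the larva stops feeding and empties its gut, the salivary glands secrete the glue that fixes the animal to its support, and the larval cuticle hardens into the puparium. The larval tissues then begin to be broken down while the imaginal discs form the adult body. Most genes known for these steps could not be followed by name, because the table carries FlyBase transcript identifiers without symbols. A gene table of the Release 6 assembly listed 44 of the 16637 identifiers, of which 16 belonged to 1 gene and 28 to several genes that share 1 transcript. None of the marker genes of salivary gland, fat body, midgut, testis or ovary listed for a check of the tissue was among them, so the stage labels were not checked against markers.

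Each array gave 1 intensity per transcript. The median intensity of the larval arrays lay between 2568 and 2688, and that of the prepupal arrays was 3119 for replicate 2, 2414 for replicate 3 and 2444 for replicate 5. After quantile normalization on the log2 scale, any pair of larval arrays correlated across transcripts at r = 0.996 or above, and the prepupal pairs at 0.956 (replicates 2 and 3), 0.989 (2 and 5) and 0.979 (3 and 5). The median standard deviation (SD) of a transcript was 0.040 among larvae and 0.114 among prepupae, and 87.2% of the transcripts varied less among the larval arrays. The pair farthest apart, replicates 2 and 3, held the highest and the lowest median intensity. Replicate 5 was almost as dim as replicate 3, and it formed the closest pair with replicate 2. The part of brightness in the spread among prepupae was not tested. With 3 arrays per stage, array number sets the precision of each value.

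Within Oregon-R, the arrays address which transcripts change as the larva forms the puparium. A transcript was called when limma's moderated test, fitted to all 24 arrays, gave a p-value under 0.05 after Benjamini-Hochberg adjustment over all 16637 transcripts. Of these 2781 were called, which is 16.7%, with 1284 higher (7.72%) and 1497 lower (9%) in prepupae. The arrays of both stages did not overlap for 6115 transcripts (36.8%), and 2770 of the called transcripts were among these. Most calls were small, since 1845 of them (66.3%) changed by less than 1.5-fold. The median change was 0.36 on the log2 scale among the calls that were higher and -0.51 among those that were lower, against 0.03 over all transcripts. With the arrays left unscaled 840 transcripts were called, 294 higher and 546 lower, and 837 of the 840 were among the 2781. Without prepupal replicate 2 the number called was 3349, and in the other fits that left out 1 Oregon-R array it lay between 2154 and 2407.

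Large changes were mostly falls. At least 2-fold changes were called for 428 transcripts (2.57%), of which 303 fell (1.82%) and 125 rose (0.751%), and at least 4-fold changes for 67 that fell and 28 that rose. The transcripts that fell at least 2-fold went from a median log2 level of 12.90 in larvae to 11.21 in prepupae. For the 2-fold rises these medians were 11.48 and 13.03. After background correction by normexp 687 calls were at least 2-fold, with 1.64 times as many rises, and 482 of them (70.2%) fell, against 70.8% of the 428.

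**Figure D1:**
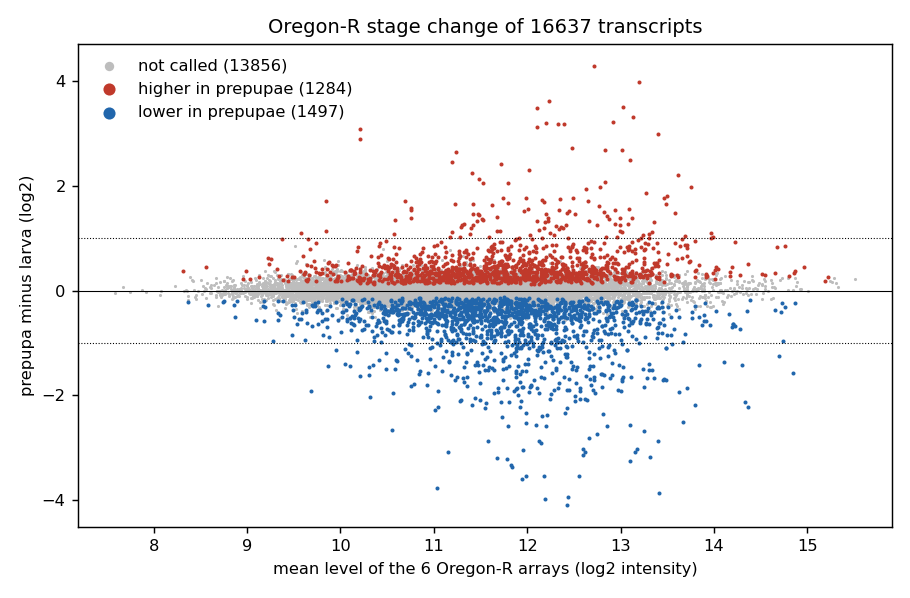
Change between stages (prepupa minus larva, log2) of each of the 16637 transcripts against its mean level over the 6 Oregon-R arrays (log2 intensity). Red points (1284) are called higher and blue points (1497) called lower in prepupae, grey points are not called, and dotted lines mark 2-fold changes, below which 303 calls lie against 125 above.

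The share of called transcripts rose with brightness. When the transcripts were ranked by mean level over the 24 arrays and cut into 10 groups of 1663 or 1664, 7.46% of the dimmest group were called and 35.6% of the brightest. The brightest group held 140 of the 428 calls of at least 2-fold, and the dimmest held 6. The median standard error (SE) of the change was 0.079 in the dimmest group and 0.091 in the brightest. What made the share of calls rise with brightness was not tested.

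The strongest rises and falls have no symbol in the reference table and are given by identifier. FBtr0075740 read 10.58, 10.57 and 10.57 in the 3 larval arrays (replicates 2, 3 and 5) and 14.94, 14.84 and 14.82 in the prepupal ones. Its larval values lay within 0.02 of each other, and its level was 4.30 ± 0.41 higher in prepupae (log2, SE; 19.7-fold, adjusted p = 9.97e-08 by limma). FBtr0076956 read 11.22, 11.16 and 11.23 in larvae and 15.32, 15.09 and 15.16 in prepupae, a rise of 3.99 ± 0.37 (15.9-fold, adjusted p = 7.5e-08). In both, the arrays of a stage lay close together beside the distance between the stages, and the SE reflects the pooled spread of all groups.

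FBtr0083461 read 14.41, 14.52 and 14.49 in larvae and 9.99, 10.96 and 10.20 in prepupae. It fell by 4.09 ± 0.39 (17.0-fold, adjusted p = 9.43e-08), and the prepupal values were spread over almost 1 log2 unit, with replicate 3 the highest. FBtr0076095 showed the same order of replicates, at 14.11, 14.26 and 14.18 in larvae and 9.92, 10.66 and 10.00 in prepupae, a change of -3.98 ± 0.33 (15.8-fold, adjusted p = 1.35e-08). These 4 changes passed under each of the 19 alternatives tried, but their sizes depended on the background, with 5.33, 4.59, -5.22 and -5.22 in the same order after normexp correction.

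Of the 16 transcripts with 1 gene, 1 passed the test (6.25%, against 16.7% of all transcripts). It was that of Fatp1, a fatty acid transport protein. Fatp1 read 11.97, 11.86 and 12.01 in larvae and 11.34, 10.99 and 11.23 in prepupae, so that the stages did not overlap. Its level fell by 0.76 ± 0.13 (1.69-fold, adjusted p = 0.000205), and the change was -1.06 after normexp correction. The fall passed under each of the alternatives, with the largest adjusted p, 0.0495, on unscaled arrays.

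The other 15 did not pass, and their changes lay between -0.24 and 0.16. The phosphate transporter NaPi-III read 11.13, 11.12 and 11.07 in larvae and 11.05, 10.66 and 10.91 in prepupae, a change of -0.24 ± 0.12 (adjusted p = 0.213; 95% interval from -0.49 to 0.02). For alpha-Spec, the alpha spectrin of the membrane skeleton, the change was -0.21 ± 0.24 with an interval from -0.71 to 0.29. That interval leaves room for a fall of more than 1.5-fold, but it rests on the spread pooled over all groups. For alpha-Spec the SD was 0.81 in Samarkand prepupae, against 0.04 in Oregon-R larvae and 0.17 in Oregon-R prepupae. The transcript of mio, a subunit of a complex that activates growth signalling when amino acids are present, changed by -0.16 ± 0.07 (adjusted p = 0.134), and its prepupal values, 11.36, 11.20 and 11.28, all lay below the larval 11.49, 11.41 and 11.40. Wdr24, another subunit of that complex, stood at 11.38 ± 0.01 in larvae and 11.34 ± 0.08 in prepupae (SD, n = 3).

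None of the 4 chromatin genes measured, of 11 listed, passed, a count too small to read against the 16.7% of all transcripts. The change was -0.14 ± 0.12 for the remodeller kis, -0.11 ± 0.12 for the histone deacetylase HDAC3 and 0.07 ± 0.08 for His4r, a replacement histone H4. SuUR, which slows the replication of certain regions of polytene chromosomes, stood at 12.13 at both stages, with an interval of the change from -0.16 to 0.16. In both kis and HDAC3 prepupal replicate 2 was the highest and replicate 3 the lowest of the prepupal arrays, at 12.64 and 12.09 for kis and 11.44 and 11.04 for HDAC3. Without replicate 3 their changes were 0.00, so even their sign rests on that array. In the ubiquitin pathway, rdx, a substrate adaptor of a ubiquitin ligase, changed by 0.09 ± 0.07, and the activating enzyme Uba1 stood at 13.39 ± 0.05 in larvae and 13.44 ± 0.18 in prepupae. LanA, a laminin chain of the basement membrane, stood at 13.02 ± 0.04 and 13.07 ± 0.09, and sle, a nucleolar protein, at 13.46 ± 0.04 and 13.50 ± 0.06. CG31178 changed by 0.16 ± 0.07 (adjusted p = 0.117), and fend and CG16974 by less than 0.06 in size.

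The 28 transcripts listed with several genes carry more than 1 reading frame, and the array cannot tell the frames apart. For 27 of them the reference names an upstream and a main frame, and for 1, that of CG7950 and Rpp14a, main frames only. They were named only after the files had been seen. Of these 6 passed (21.4%, against 16.7% of all transcripts), 3 higher and 3 lower in prepupae.

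The deepest of these falls was in the transcript of CG17325 and CG42305, which read 13.38, 13.45 and 13.38 in larvae and 11.09, 10.97 and 11.04 in prepupae. The difference of -2.37 ± 0.06 (5.17-fold, adjusted p = 3.47e-16) was many times the spread of either stage. CG10570 and CG42502 shared a transcript that read 13.68, 13.84 and 13.67 in larvae and 13.01, 13.41 and 12.93 in prepupae, a fall of 0.61 ± 0.18 (adjusted p = 0.0184). Its adjusted p rose to between 0.0548 and 0.0907 without larval replicate 3, prepupal replicate 2 or prepupal replicate 5, and it did not pass with median centring (0.0771) or without scaling (0.052). The smallest fall that passed, -0.28 ± 0.09 for CG8026 and CG45085 (adjusted p = 0.0443), was lost under 13 of the 19 alternatives and in 5 of the 6 fits that left out 1 array, in which the adjusted p reached 0.218.

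The largest rise among them was in the transcript of CG44000, CG44001 and CG33995. It read 12.19, 12.14 and 12.15 in larvae and 13.15, 12.63 and 12.91 in prepupae, a rise of 0.74 ± 0.11 (1.67-fold, adjusted p = 3.7e-05). Mettl5, an enzyme that methylates ribosomal RNA, shares its transcript with CG42374. This transcript read 10.24, 10.19 and 10.18 in larvae and 10.45, 10.62 and 10.47 in prepupae, a rise of 0.31 ± 0.06 (adjusted p = 0.000303) that was 0.53 after normexp correction and did not pass without scaling (adjusted p = 0.528). Ppcdc, which acts in the synthesis of coenzyme A, and CG42496 shared a transcript that rose by 0.24 ± 0.07 (adjusted p = 0.0247). Its prepupal values of 12.70, 12.90 and 12.71 were above the larval 12.53, 12.50 and 12.54, but the call was lost under 10 alternatives, among them the omission of prepupal replicate 3 (0.18, adjusted p = 0.162) or of any 1 larval array.

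The other 22 did not pass, with changes between -0.21 and 0.12. Among them were transcripts of Tim10, a chaperone of mitochondrial protein import (12.24 at both stages), and Mvk, the mevalonate kinase (12.37 ± 0.04 in larvae and 12.38 ± 0.07 in prepupae). Transcripts for the addition of glycolipid anchors to proteins also stood at nearly the same level, with 12.63 and 12.62 for PIG-M and 12.67 and 12.63 for PIG-P. The widest of their changes was -0.21 ± 0.10, in the transcript of ND-MNLL, a subunit of respiratory complex I, and CG45089. It read 10.69, 10.63 and 10.70 in larvae and 10.44, 10.53 and 10.42 in prepupae, which do not overlap, and its adjusted p of 0.195 was 0.0456 when the Oregon-R arrays were fitted alone.

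**Figure D2:**
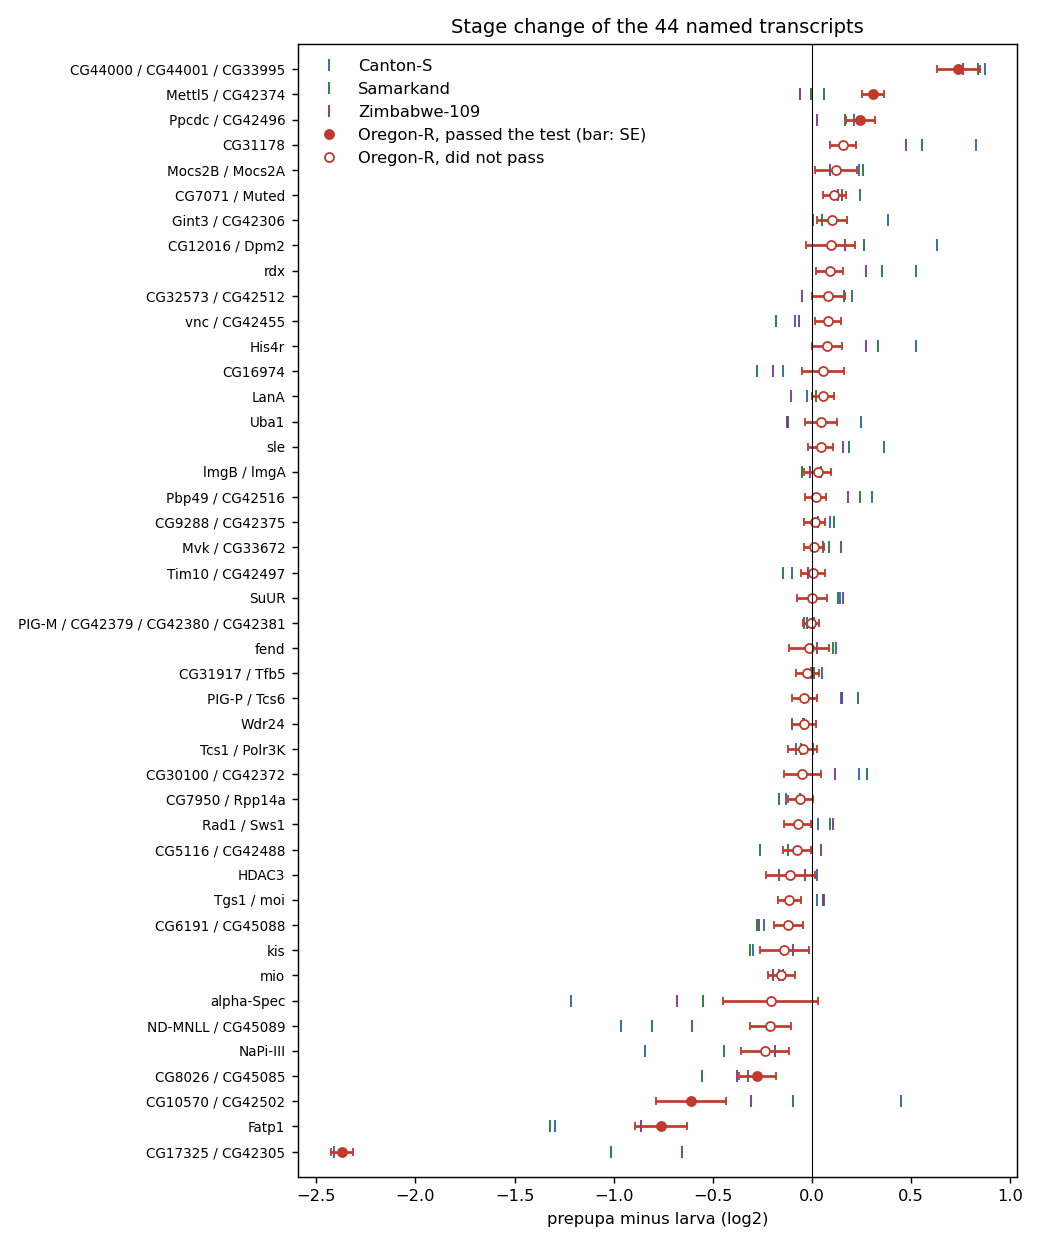
Stage change (prepupa minus larva, log2) of the 44 transcripts with a gene name, ordered by the Oregon-R value. Red circles are Oregon-R, filled where the test was passed (7 transcripts), with bars for the SE of the fit, and coloured ticks are the other 3 strains. The transcript of CG17325 and CG42305 lies far below the rest at -2.37, and most Oregon-R circles lie nearer to 0 than the ticks beside them.

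Whether the Oregon-R stage change differed from that of the other strains was tested in the same fit, as the Oregon-R change minus the mean change of Canton-S, Samarkand and Zimbabwe-109. The stage change was called for 29.6% of transcripts in Zimbabwe-109, 50.8% in Samarkand and 56.7% in Canton-S, against 16.7% in Oregon-R. Oregon-R was chosen for this report as the strain with the fewest such calls, so its low share was fixed by that choice. The same choice favours smaller or uncalled changes in Oregon-R in the comparisons below. The difference itself passed for 3123 transcripts (18.8%), in 1670 of which (10%) the Oregon-R change was the higher and in 1453 (8.73%) the lower. In 2636 of the 3123 (84.4%) the change was smaller in size in Oregon-R, which also held for 71% of all transcripts. The sign was the same as in the mean of the others in 1922 transcripts with a smaller and 264 with a larger change, and opposite in 937. RNA of different strains was extracted independently, per the labels' protocols, so a strain difference at 1 stage and a difference in extraction cannot be told apart.

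Canton-S had a large part in the count. The difference from Canton-S alone passed for 4295 transcripts (25.8%), that from Samarkand for 1495 (8.99%) and that from Zimbabwe-109 for 702 (4.22%). Of the calls against Samarkand 68.8% were higher in Oregon-R, against 85.1% with median centring and 88.9% on unscaled arrays. Without Canton-S the difference from the mean of the others passed for 1546 transcripts, and on unscaled arrays for 472, of which 409 were higher and 63 lower in Oregon-R. With median centring it was 2897, with 1897 higher and 1000 lower. Without the 2 Zimbabwe-109 arrays that stood apart from their replicates it was 3445, and the difference from Zimbabwe-109 then passed for 1334.

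**Figure D3:**
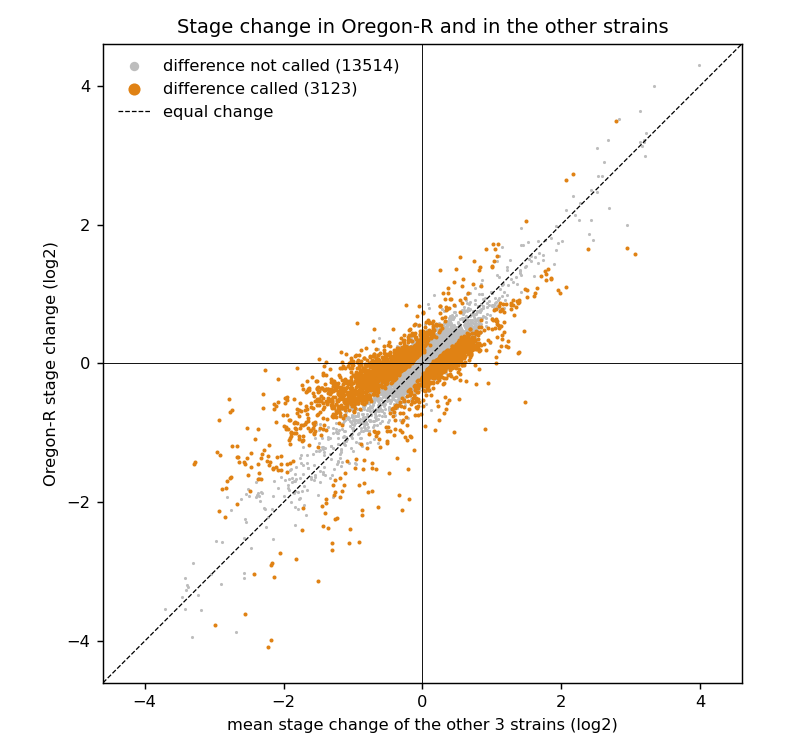
Oregon-R stage change against the mean stage change of Canton-S, Samarkand and Zimbabwe-109 (both prepupa minus larva, log2), 1 point per transcript. Orange points are the 3123 transcripts whose difference passed the test, and the dashed line marks equal changes. Most orange points lie between the dashed line and the horizontal line at 0, where the Oregon-R change has the same sign and is smaller.

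A change shared by the other strains was often not called in Oregon-R. In the other 3 strains 4133 transcripts were called with 1 sign, and 1866 of these (45.1%) were called with that sign in Oregon-R. Over all transcripts 16.7% were called in Oregon-R with either sign. Of the 2256 not called in Oregon-R, 1983 had the same sign there, and 1318 passed the test of the difference. In the opposite direction, 172 transcripts were called in Oregon-R and in no other strain, 102 higher and 70 lower. Of these 103 passed the test of the difference, which 18.8% of all transcripts passed. Both the 2256 and the 172 were chosen on the stage changes that this test compares, which favours passing it. Only 1 of the 172 changed at least 2-fold. Another 11 transcripts were called in Oregon-R against calls of the other sign in each of the other strains, 6 higher and 5 lower, with changes of 0.22 to 0.95 in size in Oregon-R.

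The widest differences are again given by identifier. FBtr0073894 stood at 12.07 ± 0.19 in Oregon-R larvae (12.18, 11.86 and 12.19), against 13.55 in Zimbabwe-109, 13.90 in Samarkand and 14.98 in Canton-S larvae. In prepupae it stood at 11.56 ± 0.32 (11.43, 11.33 and 11.93), within the range of the other strains (11.11 to 11.66). Its Oregon-R change of -0.51 ± 0.23 did not pass and was 2.28 ± 0.26 above the mean of the others (adjusted p = 1.16e-05). FBtr0088189 read 10.73, 10.55 and 10.75 in Oregon-R larvae and 10.41, 10.76 and 10.58 in prepupae. It stood between 12.62 and 14.05 in the larvae of the other strains and between 10.81 and 11.42 in their prepupae, a difference in change of 2.18 ± 0.23 (adjusted p = 3.76e-06). Its mean in Oregon-R larvae, 10.68, was below the prepupal means of all the other strains.

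FBtr0071579 went the opposite way. It read 12.56, 12.53 and 12.29 in Oregon-R larvae and 12.07, 11.86 and 11.76 in prepupae, a fall of 0.56 ± 0.14 (adjusted p = 0.00753), while it rose by 1.25 in Zimbabwe-109, 1.57 in Samarkand and 1.60 in Canton-S. The difference of -2.04 ± 0.16 (adjusted p = 2.17e-07) passed against each of the 3 strains and had parts in both stages. Oregon-R stood 0.72 ± 0.12 above the mean of the others in larvae (adjusted p = 4.43e-05) and the difference in prepupae was -1.32 ± 0.12 (adjusted p = 9.29e-08). FBtr0083461, with a change of -4.09 in Oregon-R, had changes of -3.01 in Samarkand, -2.25 in Zimbabwe-109 and -1.40 in Canton-S, a difference of -1.87 ± 0.45 (adjusted p = 0.00652). Without Canton-S that difference was -1.46 and did not pass (adjusted p = 0.0772). For FBtr0076095 it was -1.80 ± 0.38 (adjusted p = 0.00251). Taken strain by strain, FBtr0083461 and FBtr0076095 differed past the threshold from Canton-S only (adjusted p = 0.0011 and 0.000791). They did not from Samarkand (0.251 and 0.0543) or Zimbabwe-109 (0.0642 and 0.0611). The change of FBtr0075740 and FBtr0076956, the strongest rises, did not differ from the mean of the others past the threshold (0.31, adjusted p = 0.708, and 0.66, adjusted p = 0.32). Their SDs in Zimbabwe-109 larvae, 1.55 and 1.38, enter that test, against 0.008 to 0.123 in the larvae of the other strains.

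**Figure D4:**
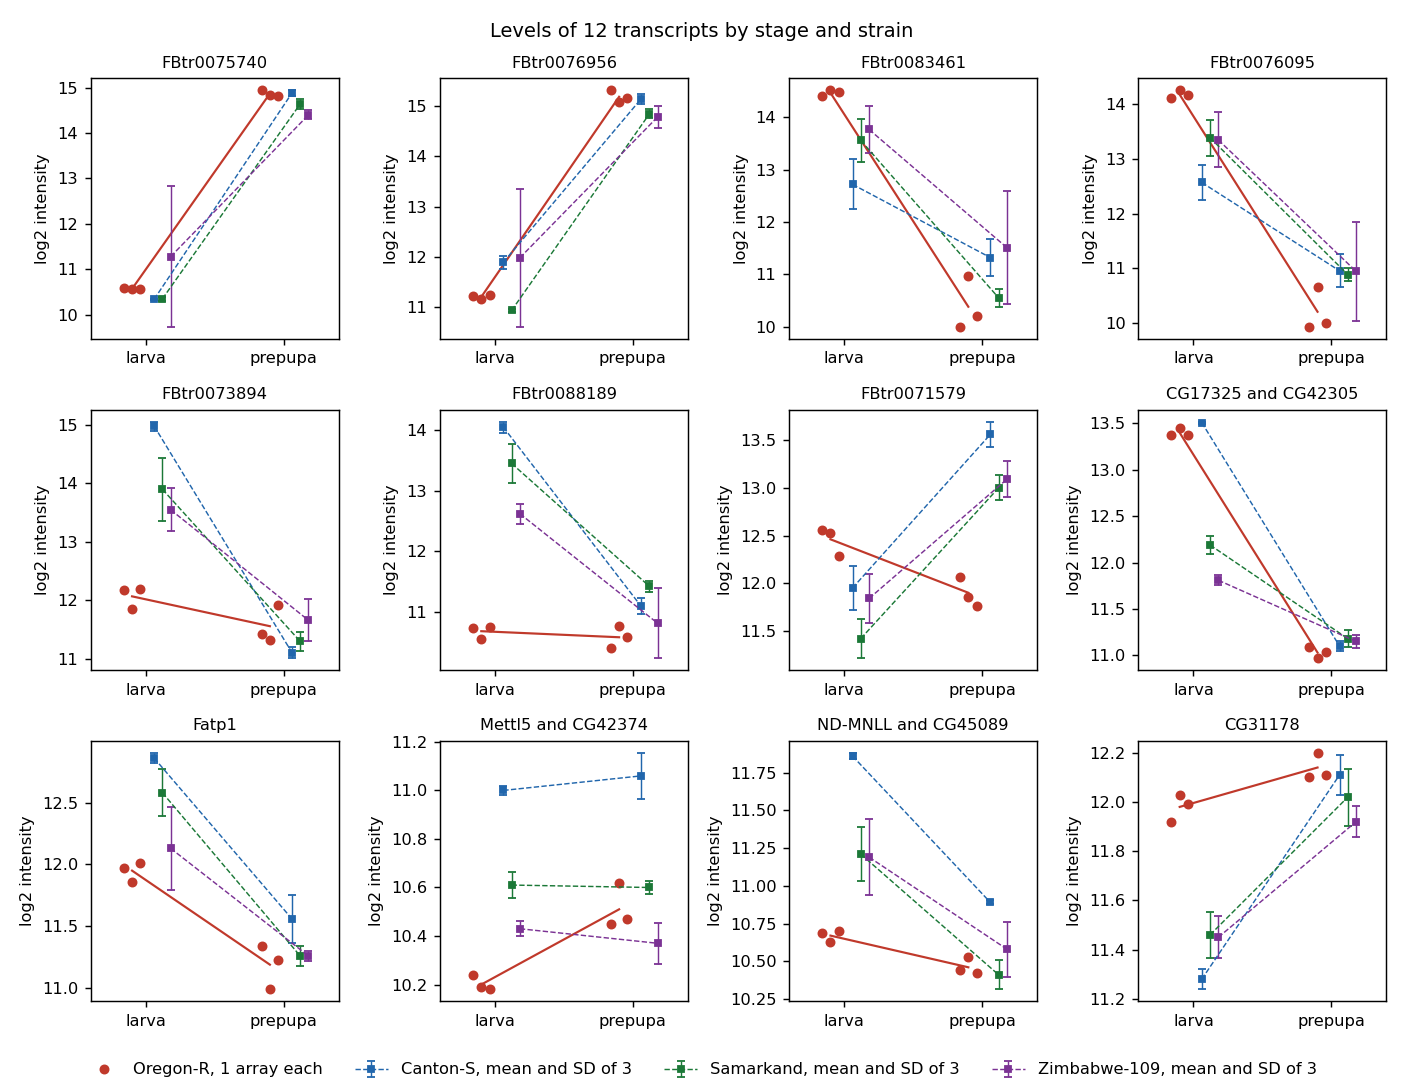
Levels (log2 intensity after quantile normalization) of 12 transcripts in larvae and prepupae. Red circles are single Oregon-R arrays joined at their means, and squares are means of 3 arrays of the other strains with SD bars. FBtr0073894, FBtr0088189, Fatp1, CG31178 and the transcript of ND-MNLL and CG45089 differ between Oregon-R and the other strains more in larvae than in prepupae.

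Of the 44 named transcripts, 9 passed the test of the difference (20.5%, against 18.8% of all transcripts). The transcript of CG17325 and CG42305 had a change of -2.37 in Oregon-R and -2.41 in Canton-S, but of -0.65 in Zimbabwe-109 and -1.01 in Samarkand. Its larval level was 13.40 ± 0.04 in Oregon-R and 13.51 ± 0.01 in Canton-S, against 12.19 ± 0.10 and 11.81 ± 0.05 in the others (SD, n = 3), while all prepupal means lay between 11.03 and 11.18. The difference from the mean of the others was -1.01 ± 0.07 (adjusted p = 1.53e-08; -0.62 without scaling, adjusted p = 0.114; -1.54 without Canton-S). The transcript of ND-MNLL and CG45089 stood at 10.67 ± 0.04 in Oregon-R larvae, where Canton-S read 11.86, Samarkand 11.21 and Zimbabwe-109 11.19, and its change was 0.58 ± 0.12 above that of the others (adjusted p = 0.00223). Strain by strain, that difference passed against Canton-S (adjusted p = 0.000763) and Samarkand (0.014) but not against Zimbabwe-109 (0.152).

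Mettl5 with CG42374 changed by 0.06, -0.01 and -0.06 in Canton-S, Samarkand and Zimbabwe-109, against the rise of 0.31 in Oregon-R. The difference, 0.31 ± 0.06 (adjusted p = 0.00203), passed against each of the 3 strains and was as large as the Oregon-R change itself. Oregon-R larvae were lowest in this transcript, at 10.20 ± 0.03 against 10.43 to 11.00. CG31178 rose by 0.83, 0.56 and 0.47 in the other strains, a difference of -0.46 ± 0.08 (adjusted p = 0.0003), and its larval level of 11.98 ± 0.06 in Oregon-R exceeded the 11.28 to 11.46 of the others. For CG31178 the difference passed against Canton-S (adjusted p = 2.55e-05) and Samarkand (0.0089) but not against Zimbabwe-109 (0.0605). Both transcripts kept the difference from the mean of the others under all but the unscaled setting, in which the adjusted p was 0.725 for Mettl5 and 0.288 for CG31178.

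The other 5 differences were closer to the threshold. They were -0.30 ± 0.08 for rdx (adjusted p = 0.0111), -0.30 ± 0.09 for His4r (0.0199), -0.22 ± 0.06 for Pbp49, a subunit of a complex that activates the genes of small nuclear RNAs, with CG42516 (0.0166), -0.22 ± 0.07 for PIG-P with Tcs6, which acts in the modification of transfer RNA (0.0447), and -0.63 ± 0.20 for CG10570 with CG42502 (0.0367). Each was lost with median centring, without scaling and without Canton-S, where they lay between -0.49 and -0.15, between -0.46 and -0.12 and between -0.41 and -0.19. The fall of Fatp1 was 0.40 less than in the mean of the others, which did not pass (adjusted p = 0.0717).

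The strains were then compared at each stage by itself. Oregon-R larvae differed from the mean of the other larvae in 8316 transcripts (50%) and Oregon-R prepupae from the mean of the other prepupae in 3826 (23%). In larvae 4704 transcripts (28.3%) were higher and 3612 (21.7%) lower in Oregon-R, so that 56.6% of the calls were higher, against 28.9% of them on unscaled arrays. In prepupae 1975 (11.9%) were higher and 1851 (11.1%) lower. Differences of at least 2-fold numbered 209 in larvae and 37 in prepupae, and unlike the calls as a whole, 171 of the 209 were lower in Oregon-R larvae. Of these 171, 164 (95.9%) fell between larva and prepupa in the mean of the other strains, as did 26.1% of all transcripts. The remaining 38 were higher in Oregon-R larvae, and 22 of them (57.9%) rose in the mean of the other strains, as did 44.9% of all transcripts. The larval difference and the change in the other strains use the same larval arrays of those strains, which favours such an overlap. Larval arrays of Oregon-R also had the smallest spread of any group, with a median SD of 0.040 against 0.049 to 0.120 in the other 7 groups. The fit pooled the spread of each transcript over all groups, so the larval and the prepupal difference had the same SE. The larval count was 2064 and the prepupal count 255 without scaling, and 5979 and 3869 without Canton-S. Of the 44 named transcripts 29 differed in larvae (65.9%) and 17 in prepupae (38.6%), and of the 9 whose stage change differed all 9 differed in larvae and 1, that of Mettl5, in prepupae.

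Among the 3123 transcripts whose stage change differed, 2092 differed from the other strains in larvae and not in prepupae, 358 in prepupae and not in larvae, 592 at both stages and 81 at neither. Over all transcripts 50% differed in larvae and 23% in prepupae, so larval calls were the more frequent there too. The larval gap was the larger in 81.4% of the 3123, against 68.5% of all transcripts. The same was seen in transcripts chosen on the stage changes of the other strains. That choice did not use the Oregon-R change, but its fit and normalization included the Oregon-R arrays. Of 325 transcripts that fell at least 2-fold in each of the other strains, 299 (92.0%) fell in Oregon-R, 200 of them at least 2-fold. Their median change was -1.29 in Oregon-R and -1.47 in Zimbabwe-109, and -1.98 in both Samarkand and Canton-S, and the difference passed for 192, with a smaller fall in Oregon-R for 172. In larvae 232 of the 325 (71.4%, against 21.7% of all transcripts) were lower and 19 (5.85%, against 28.3%) higher in Oregon-R, with a median gap of -0.76. In prepupae 44 (13.5%, against 11.1%) were lower and 4 (1.23%, against 11.9%) higher, with a median gap of -0.14.

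Of 89 transcripts that rose at least 2-fold in each of the other strains, 87 (97.8%) rose in Oregon-R, 77 of them at least 2-fold. Their median change was 1.54 in Oregon-R, between the 1.39 of Zimbabwe-109 and the 1.83 of Samarkand, and the median gap was 0.17 in larvae and 0.00 in prepupae. Of the 89, 34 (38.2%, against 28.3% of all transcripts) were higher and 5 (5.62%, against 21.7%) lower in Oregon-R larvae. In prepupae 7 (7.87%) were higher and 8 (8.99%) lower, both below the shares over all transcripts. The larval median gap of the rises was thus nearer to 0 than that of the falls, a difference that was not tested.

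**Figure D5:**
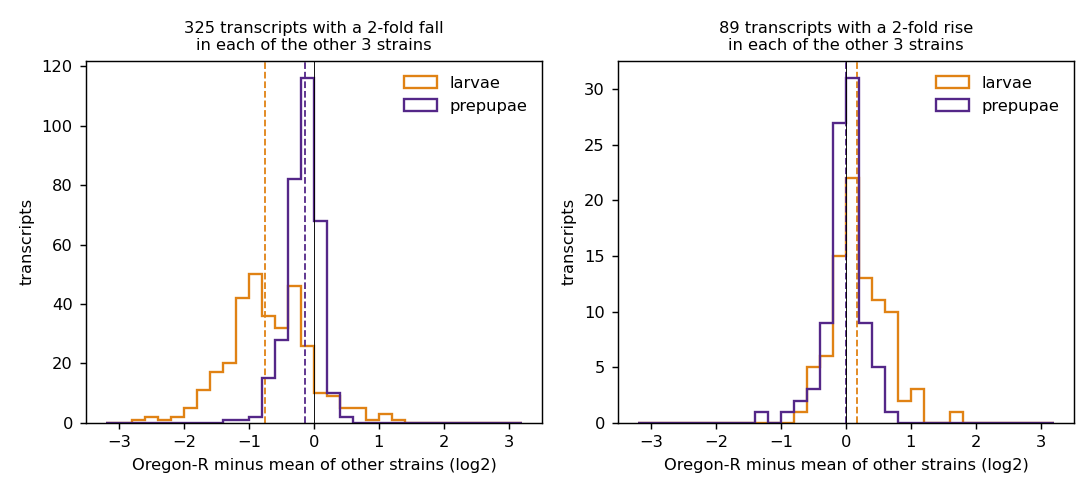
Difference between Oregon-R and the mean of the other strains (log2) in larvae (orange) and prepupae (purple), for the 325 transcripts that fell (left) and the 89 that rose (right) at least 2-fold in each of the other strains. Dashed lines are medians, at -0.76 and -0.14 for the falls and at 0.17 and 0.00 for the rises.

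A choice made on strong changes in all the other strains favours large changes there, and the gaps above use the same arrays as the choice. The sets were therefore chosen on a pair of strains, and Oregon-R was set beside the strain left out of the choice. Of 352 transcripts that fell at least 2-fold in Canton-S and Zimbabwe-109, the median change was -1.24 in Oregon-R and -1.91 in Samarkand. Their median larval gap to the mean of that pair was -0.73 in Oregon-R and 0.06 in Samarkand. Of 342 chosen on Samarkand and Zimbabwe-109, the medians were -1.27 in Oregon-R and -1.94 in Canton-S. Of 579 chosen on Canton-S and Samarkand they were -0.84 in Oregon-R and -1.08 in Zimbabwe-109, and here the larvae of both were low, with gaps of -0.89 and -0.54. Rises chosen on Canton-S and Samarkand were no smaller in Oregon-R, with medians of 1.26 in Oregon-R and 1.15 in Zimbabwe-109 over 149 transcripts. A smaller median change in Oregon-R was thus seen for falls beside each of the 3 strains, and for rises beside Canton-S (1.5 and 2.12) and Samarkand (1.5 and 1.82). Oregon-R itself was chosen for its few stage calls, which favours smaller changes there.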

How the data were processed

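The authors deposited 1 table of array intensity values on a linear scale for 16637 FlyBase transcripts on 24 single-colour NimbleGen arrays. The submitters' processing notes name RMA, without a version. The values were whole numbers and array medians differed, so the arrays were not on a common scale, and the values do not show if background was removed. The intensities were taken to log2 and quantile normalized over all 24 arrays with limma 3.58.1 in R 4.3.3. A model with 1 mean per strain and stage (16 residual degrees of freedom) was followed by empirical Bayes moderation, contrasts and two-sided tests, with a threshold of 0.05 on Benjamini-Hochberg adjusted p-values over the whole table. No transcript was filtered out. Errors beside changes are standard errors of the fit. The p-values measure the spread between pools of animals.

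Strain and stage came from the labels and replicate numbers from the sample titles. The comparison, the gene lists and the settings were chosen with earlier results of these data known. Symbols came from the synonyms of a RefSeq gene table (Release 6). By the naming rule all transcripts with 1 gene were named, and by identifier the 2 strongest rises, falls and differences from the other strains in each direction. Of 19 gene lists (220 genes), 6 had a measured member, 11 genes in all: Fatp1, His4r, kis, HDAC3, SuUR, mio, Wdr24, Uba1, rdx, LanA and alpha-Spec, of which Fatp1 passed. No sequence or coordinate is given, since no genome or sequence table was used here.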

Additional observations from a re-analysis of the deposited data

Results flagged for a closer look

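The stage change in Oregon-R differed from that of other strains by a direct test. Measured against the mean of the other strains this held for 3123 transcripts, against Canton-S for 4295, against Samarkand for 1495 and against Zimbabwe-109 for 702. Among the transcripts given by name or identifier, the Oregon-R change lay above the mean of the others by 2.28 in FBtr0073894, 2.18 in FBtr0088189, 0.58 in ND-MNLL with CG45089 and 0.31 in Mettl5 with CG42374. It lay below with differences of -2.04 in FBtr0071579, -1.87 in FBtr0083461, -1.80 in FBtr0076095, -1.01 in CG17325 with CG42305, -0.63 in CG10570 with CG42502, -0.46 in CG31178, -0.30 in rdx (-0.296), -0.30 in His4r (-0.303), -0.22 in Pbp49 with CG42516 and -0.22 in PIG-P with Tcs6. The part that independent extraction of each strain or a difference in age within the larval stage has in these values was not tested.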

How the results depend on the processing

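Beside the 2781 calls of the stage change, 3123 of the difference from the other strains, 4295, 1495 and 702 of the differences from Canton-S, Samarkand and Zimbabwe-109, and 8316 and 3826 of the larval and prepupal differences, unscaled arrays gave 840, 472, 1213, 235, 65, 2064 and 255. Without the dimmest 50% of transcripts, where fewer were tested, the difference from the others gave 1994, that from Canton-S 2492, and the larval and prepupal differences 4484 and 1981. Median centring gave 400 for Zimbabwe-109. Without Canton-S the difference from the others passed for 1546 transcripts, and without 2 Zimbabwe-109 arrays that from Zimbabwe-109 for 1334. Whether replicate numbers pair the samples was not settled. Deviations of same-numbered Oregon-R arrays from their group means correlated at r = 0.21 (replicate 2), -0.17 (3) and -0.40 (5). Differently numbered ones lay between -0.33 and 0.40. With 3 arrays per stage these values depend on each other, so they cannot decide the question. With a replicate block, which left 5 residual degrees of freedom against 16, the differences gave 1591, 2700, 566 and 372 and the stage change 2418. Of the 1591, 1029 were higher and 562 lower. The block fit gave 3320 and 929 for the larval and prepupal comparisons. There the level of each strain refers to 1 of its replicate numbers and not to its mean, so these 2 counts are not comparable with 8316 and 3826. Leaving out 1 Oregon-R array gave 2154 to 3349 for the stage change, 2026 to 3070 for the difference from the others, 445 to 742 for Zimbabwe-109 and 2470 to 3850 for the prepupal difference. The lowest of these were without larval replicate 3 for the difference from the others (2026) and from Zimbabwe-109 (445; 459 without larval replicate 2), and without prepupal replicate 5 for the prepupal difference. The stage change, which the test did not pass, ranged from -0.2698 to 0.004014 in kis and from -0.1979 to 0.003286 in HDAC3, with the sign turned without prepupal replicate 3. Array brightness as a covariate, chosen after seeing the data, gave 3456 calls of the stage change, 2781 of them shared. No transcript called under both settings changed sign in any of the alternatives run for the stage change. These fits share most or all of their Oregon-R arrays, which favours the same sign. The median change of all transcripts was 0.0268 with quantile normalization, 0.0328 with median centring and 0.0497 without scaling. The median size of a change, whatever its sign, was 0.114 with quantile normalization.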
